A study of Homo sapiens with 8 samples.

Results

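The 50 genes described here encode proteins of mitosis and of the mitotic spindle. They were taken by name from the table of 13842 genes, in which all 50 had a row and passed the filter on low values (0.5 CPM or more in at least 2 libraries, where CPM is the read count scaled to the normalised size of its library). RNA-seq libraries came from MCF10A, an immortalised normal breast epithelial cell line, and from DCIS.COM, a line of the MCF10 series that models ductal carcinoma in situ. Each line had been stably transduced with the lentiviral vector pLOC, either empty (pLOC-empty) or carrying the long non-coding RNA *MALINC1* (pLOC-*MALINC1*), and selected with blasticidin. The 4 groups held 2 libraries each, 8 in all. RNA was taken from subconfluent plates. Both lines grew in DMEM/F-12 with horse serum, and the MCF10A medium also held epidermal growth factor, hydrocortisone, insulin and cholera toxin, so that line and medium cannot be told apart. Nothing in the labels says that the libraries of a group came from separate transductions or cultures, so *p*-values measure only the spread between these libraries.

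Cells enter mitosis when CDK1 bound to cyclin A or B becomes active, after CDC25 phosphatases remove inhibitory phosphates from it. Chromosomes attach to spindle microtubules through the kinetochore, and the spindle checkpoint holds back anaphase until every kinetochore is attached. The anaphase-promoting complex with its activator CDC20 then has cyclin B and securin degraded, separase cuts cohesin and the cell divides by cytokinesis. Transcription of many of these genes rises in G2 and M phase through B-MYB (*MYBL2*), FOXM1 and the MuvB complex, which binds the cell cycle homology region, while DREAM represses the same promoters in resting cells. In a bulk library, a lower level can come from fewer cells in G2 and M phase or from less RNA per such cell, and these cannot be told apart.

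The libraries held between 20604377 and 37550457 reads on genes. *MALINC1* was at 1.07 and 1.58 CPM in the pLOC-empty libraries of MCF10A and at 13.3 and 11.8 CPM with pLOC-*MALINC1*, and in DCIS.COM it was at 1.42 and 1.22 CPM against 24.5 and 19.2 CPM. *MALINC1* levels thus matched the labels in all 8 libraries. All 8 basal epithelial markers looked up had a row. *KRT5* lay between 1053 and 8766 CPM, *KRT14* between 21.2 and 2954 CPM and *TP63* between 4.68 and 57.5 CPM. Among pLOC-empty libraries, 6 of the 8 were lower and 2 higher in DCIS.COM than in MCF10A (median log2 difference -1.91). Of 4 general epithelial markers, 3 were higher and 1 lower in DCIS.COM. Of all genes, 36.0% were lower and 37.9% higher. The luminal markers *ESR1*, *GATA3* and *FOXA1* lay between 1.80 and 35.2 CPM, and *PGR* had no row. No row was found for *PTPRC*, *CD3E*, *CDH5*, *VWF*, *COL1A2*, *COL3A1*, *PDGFRA* and *PDGFRB* either. The leukocyte, endothelial and fibroblast markers with a row were *CD68* (3.604 to 11.52 CPM), *PECAM1* (0.159 to 7.28 CPM) and *COL1A1* (1.58 to 15.9 CPM). *PECAM1* fell by 5.07 on the log2 scale with pLOC-*MALINC1* in DCIS.COM, where *CD68* rose by 0.96, and *COL1A1* fell by 1.14 in MCF10A. The basal epithelial markers moved with the vector too: 8 of 8 rose in MCF10A, and 2 rose and 3 fell in DCIS.COM. Among all genes, 21.5% rose with the vector in MCF10A, and 16.4% rose and 16.7% fell in DCIS.COM. The part of all these markers in the results below was not tested. The signal recognition particle RNAs *RN7SL1* and *RN7SL2* took 8.22% to 15.7% of the reads, and less with pLOC-*MALINC1* than with pLOC-empty in each line.

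The level of the group as a whole was highest in MCF10A with pLOC-empty and lowest in DCIS.COM with pLOC-*MALINC1*. The 50 genes together took 8853 and 8417 CPM in MCF10A with pLOC-empty and 7382 and 7705 CPM with pLOC-*MALINC1*. In DCIS.COM they took 6350.3 and 6447 CPM with pLOC-empty and 5385 and 5546 CPM with pLOC-*MALINC1*. The libraries of the 4 groups did not overlap in this sum. The group means (SD over 2 libraries) were 8635 ± 308, 7544 ± 228, 6399 ± 68.6 and 5465 ± 114 CPM in the same order. The change of the sum with pLOC-*MALINC1* was -12.6% in MCF10A and -14.6% in DCIS.COM, and the change from MCF10A to DCIS.COM was -25.9% among pLOC-empty libraries. Every member was well covered, from 371 reads for *CDC25C* in its lowest library to 23055 reads for *ANLN* in its highest.

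Levels of different genes were compared per kilobase of the annotated transcript. In MCF10A with pLOC-empty the highest of the 50 were *CKS2* (a small CDK-binding subunit), *CCNB1* (cyclin B1), *ANLN* (the cytokinesis scaffold anillin), *UBE2C* (a ubiquitin-conjugating enzyme of the anaphase-promoting complex) and *CDK1*, at 205, 166, 161, 151 and 138 CPM per kb. The lowest were *ESPL1* (separase) at 6.82 and *CDC25C* (a CDK1-activating phosphatase) at 9.85 CPM per kb. In DCIS.COM with pLOC-empty the top place belonged to *PTTG1* (securin, the inhibitor of separase) at 253 CPM per kb, against 121 CPM per kb in MCF10A. *CDK1* stood at 70.2 CPM per kb there.

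Many of these promoters share a pair of short sequences. RefSeq (GRCh38.p14) gave 53 annotated promoters for 42 of the genes, and no entry was found for *TPX2*, *BUB3*, *TTK*, *RACGAP1*, *FOXM1*, *UBE2C*, *BIRC5* or *AURKA*. The letters of the cell cycle homology region (TTTGAA or TTCGAA, either strand) were searched in the 250 bases before each start, together with the CCAAT box (CCAAT, either strand), the binding sequence of NF-Y. The first was present in 56.6% of the 53 promoters and in 14.3% of all 35116 promoters of this length, and the second in 73.6% against 32.0%. Both were found in 47.2% against 5.05%. Within 100 bases of the start the shares were 41.5% against 4.92% for the cell cycle homology region, and 18 of the 53 promoters against 0.988% of all held both. The 43 promoters of 34 S-phase genes, by contrast, held the cell cycle homology region in 4.65% and the CCAAT box in 62.8%. A match of these letters is a description and does not show that the site is bound.

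Promoter windows of the 8 leading genes that hold the cell cycle homology region are shown to let its position be seen. Capitals mark the letters of the cell cycle homology region and of the CCAAT box, as searched above, on either strand. The windows cover bases 100 to 1 before the start, except for *CDK1* and *TOP2A*, whose windows cover bases 200 to 101, and for *PLK1*, *CENPA* and *PRC1*, where 30 bases around the element are shown. *CDK1* has 2 annotated starts, and its window belongs to the upstream one. Before its other start, elements begin at bases 69 and 13 and CCAAT boxes at bases 78 and 46. Sequences are from RefSeq, read in the direction of transcription, and their places are those of an exact match in GRCh37.

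CDK1 (chr10:62537889-62537988, plus strand): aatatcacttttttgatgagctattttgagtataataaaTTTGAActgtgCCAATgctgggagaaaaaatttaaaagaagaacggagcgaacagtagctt
PLK1 (chr16:23690169-23690198, plus strand): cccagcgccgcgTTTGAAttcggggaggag
CENPA (chr2:27008894-27008923, plus strand): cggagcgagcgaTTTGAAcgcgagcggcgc
KIF11 (chr10:94352787-94352886, plus strand): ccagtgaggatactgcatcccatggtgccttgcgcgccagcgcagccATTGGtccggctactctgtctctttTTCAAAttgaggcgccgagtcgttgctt
PRC1 (chr15:91537768-91537797, minus strand): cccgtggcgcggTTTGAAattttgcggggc
CDC20 (chr1:43824552-43824651, plus strand): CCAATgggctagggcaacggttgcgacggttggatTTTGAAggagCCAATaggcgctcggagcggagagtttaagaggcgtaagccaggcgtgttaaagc
TOP2A (chr17:38574249-38574348, minus strand): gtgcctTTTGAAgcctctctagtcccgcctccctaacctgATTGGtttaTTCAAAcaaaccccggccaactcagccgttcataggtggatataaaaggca
MKI67 (chr10:129924688-129924787, minus strand): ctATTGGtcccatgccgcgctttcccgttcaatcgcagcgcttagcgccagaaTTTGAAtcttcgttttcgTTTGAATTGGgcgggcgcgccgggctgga

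Within these windows, *CDC20* carried a CCAAT box on either side of its element, and *TOP2A* carried 1 CCAAT box between 2 elements. Outside them, the 250 bases searched held 1 further element in *CDC20* and 3 further CCAAT boxes in *TOP2A*. The shorter windows of *PLK1*, *CENPA* and *PRC1* show no CCAAT box, but the 250 bases held 1, 2 and 1 outside these windows. In *MKI67*, 1 of the 2 elements runs into a CCAAT box and shares a base with it. *CCNB1*, which had the largest response among the 50 genes in DCIS.COM, had 2 CCAAT boxes but none of the searched letters of a cell cycle homology region in the 250 bases. In MCF10A the 27 genes with the element had a median log2 difference of -0.20 and the 15 without it -0.14. In DCIS.COM the medians were -0.16 and -0.21, so that the order of the medians differed between the lines.

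With pLOC-*MALINC1*, mitosis and spindle genes were more often lower than higher in MCF10A. Of the 50, 26 fell, 1 rose and 23 did not pass the test (limma, adjusted *p* below 0.01 over all genes), and the median log2 difference was -0.19. Among all genes tested, 18.1% fell, 21.5% rose and the median log2 difference was 0. The changes were small: no member changed by more than 2-fold, a size that 5.50% of all genes reached. The falls were spread unevenly over the roles. They took in 6 of 8 kinesins, 5 of 6 spindle assembly factors and 2 of 3 cytokinesis genes. Both transcription factors (*FOXM1*, *MYBL2*) and both chromosome structure genes (*TOP2A*, *MKI67*) fell as well. Falls were fewer among the mitotic kinases (2 of 4), anaphase entry genes (1 of 4) and spindle checkpoint genes (1 of 3, with 1 rise). None of the 4 genes of the chromosomal passenger complex passed the test in MCF10A, and 3 of 8 genes of the cyclin and CDK1 group fell.

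*CDC25C* (chr5:137620958-137674044, minus strand, GRCh37) fell most in MCF10A. It was at 21.5 and 19.8 CPM in the pLOC-empty libraries and at 11.9 and 14.1 CPM with pLOC-*MALINC1* (log2 difference -0.67, SE 0.087, adjusted *p* = 4.26e-05), a 1.59-fold decrease. *BUB1B* (chr15:40453224-40513324, plus strand), which encodes the checkpoint protein BUBR1, went from 251 and 248 to 172 and 182 CPM (log2 difference -0.50, SE 0.035, adjusted *p* = 2.37e-07). The groups did not overlap for either gene. Groups of 2 libraries can lie apart without a difference in level. The share of all genes with groups apart was not counted, here or for the genes below. Annotated exons of *BUB1B* lie within the spans of the same-strand gene *PAK6* and the readthrough gene *BUB1B-PAK6*. How reads in such overlaps were counted is not stated.

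Of the 6 genes of the centromere and kinetochore group, 2 fell. *CENPF*, a large kinetochore protein that accumulates in G2 phase, was at 309.8 and 303 CPM and then at 213 and 223 CPM (log2 difference -0.49, SE 0.039, adjusted *p* = 6.64e-07). *NDC80* (chr18:2571556-2616634, plus strand), the kinetochore subunit that grips microtubules, was at 102 and 97.7 CPM and then at 72.3 and 74.3 CPM (log2 difference -0.44, SE 0.061, adjusted *p* = 7.46e-05). The other 4 genes of the centromere and kinetochore group did not pass the test. *CENPA*, the histone H3 variant that marks centromeres, was at 43.4 and 39.3 CPM against 35.1 and 37.3 CPM (adjusted *p* = 0.0401). Its 2 groups did not overlap, but the difference did not pass the test.

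Among the motors and spindle factors, *KIF11*, the kinesin that pushes spindle poles apart, fell from 239.8 and 231 to 189 and 174 CPM (log2 difference -0.38, SE 0.042, adjusted *p* = 1.16e-05). *ASPM*, a spindle pole protein, fell from 249 and 228 to 173 and 177 CPM (log2 difference -0.45, SE 0.044, adjusted *p* = 4.33e-06). *TPX2*, which activates Aurora A on spindle microtubules, fell from 315 and 312 to 263 and 269 CPM (log2 difference -0.24, SE 0.03, adjusted *p* = 3.39e-05). These 3 genes were lower in both pLOC-*MALINC1* libraries than in both pLOC-empty libraries. *KIF15*, *KIF20A*, *KIF22*, *KIF23*, *KIF18A*, *NUSAP1*, *PRC1* and *DLGAP5* also fell, by log2 differences from -0.43 for *NUSAP1* and -0.43 for *KIF20A* to -0.19 for *KIF23* and -0.19 for *KIF18A*. *PRC1*, which bundles microtubules of the central spindle, was at 308 and 297 CPM and then at 249 and 269.8 CPM (log2 difference -0.22, SE 0.042, adjusted *p* = 0.000747).

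*TOP2A* (chr17:38544777-38574148, minus strand), which disentangles sister chromatids, fell from 702 and 641 to 500.0 and 524 CPM in MCF10A (log2 difference -0.39, SE 0.047, adjusted *p* = 2.46e-05). *MKI67*, the proliferation marker that coats mitotic chromosomes, fell from 245 and 241 to 203 and 198 CPM (log2 difference -0.28, SE 0.038, adjusted *p* = 6.19e-05). *FOXM1*, the transcription factor of late G2 genes, fell from 83 and 79.5 to 68.2 and 68 CPM (log2 difference -0.25, SE 0.044, adjusted *p* = 0.000429). In all 3 genes the libraries with pLOC-*MALINC1* lay below those with pLOC-empty. *BUB1*, a checkpoint kinase, went from 138 and 129.6 to 118 and 123 CPM (log2 difference -0.15, SE 0.041, adjusted *p* = 0.00718), a call that was lost when any of 7 libraries was left out in turn (adjusted *p* up to 0.0894, without the pLOC-empty library 1 of MCF10A).

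The single rise in MCF10A was that of *MAD2L1*, the checkpoint protein MAD2, from 90.4 and 87.2 to 98.6 and 109 CPM (log2 difference 0.22, SE 0.051, adjusted *p* = 0.0031). Its adjusted *p* was 0.0111, 0.0334 and 0.0461 without the pLOC-empty library 1, the pLOC-empty library 2 or the pLOC-*MALINC1* library 2 of MCF10A, so that this call rested on each of them. Of the 4 genes of anaphase entry, 3 lay above their pLOC-empty level without passing the test. The fourth, *ESPL1*, fell (log2 difference -0.29, adjusted *p* = 0.0018). *PRC1*, *KIF20A*, *KIF23*, *ANLN* and *RACGAP1*, of the central spindle and cytokinesis, fell too. *CCNB1* was at 353 and 321 CPM against 345 and 393 CPM (adjusted *p* = 0.0704), with overlapping groups. *PLK1*, the polo-like kinase of mitotic entry and exit, was at 122 and 116 CPM against 127 and 134 CPM (adjusted *p* = 0.0221). *CDC20* was at 213 and 201.1 CPM against 219 and 248 CPM (adjusted *p* = 0.0166). For the kinases *AURKA* and *AURKB*, of the spindle pole and of the passenger complex, the log2 differences were 0.098 and 0.0056 (adjusted *p* = 0.0826 and 0.939). *CDK1* had a log2 difference of -0.093 (adjusted *p* = 0.0869).

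The count of falls in MCF10A was 18 without the pLOC-empty library 1 or without the pLOC-*MALINC1* library 1. In both cases *CCNA2*, *CCNB2*, *BUB1*, *KIF18A*, *KIF23*, *PRC1*, *DLGAP5* and *ESPL1* were no longer called (adjusted *p* up to 0.0655 for *BUB1* in the second case and up to 0.0894 in the first). With all libraries, 10 falls exceeded 0.32 on the log2 scale. The number of rises was 3 without the pLOC-*MALINC1* library 1 of MCF10A. When CPM was recomputed without *RN7SL1* and *RN7SL2*, 29 members fell and the rise of *MAD2L1* was not called.

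In DCIS.COM, 28 of the 50 genes fell with pLOC-*MALINC1*, 2 rose and 20 did not pass the test, with a median log2 difference of -0.21. Among all genes 16.7% fell, 16.4% rose and the median log2 difference was 0.0089. No member changed by more than 2-fold here either, against 4.53% of all genes. In the cyclin and CDK1 group 7 of 8 genes fell, in cytokinesis 3 of 3 and among the mitotic kinases 3 of 4, whereas none of the 3 spindle checkpoint genes passed the test and neither transcription factor fell.

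*CCNB1* (chr5:68462962-68474072, plus strand) fell most in DCIS.COM, from 291 and 289.8 CPM in the pLOC-empty libraries to 176 and 181 CPM with pLOC-*MALINC1* (log2 difference -0.70, SE 0.056, adjusted *p* = 7.92e-07), a 1.63-fold decrease. *PTTG1* (chr5:159848862-159855746, plus strand) fell from 180.4 and 182 to 118 and 123 CPM (log2 difference -0.59, SE 0.049, adjusted *p* = 1.11e-06). Cyclin B1 and securin are the substrates whose destruction starts anaphase, and the libraries of the 2 groups lay far apart for both genes. *PTTG1* has the annotated copies *PTTG2* and *PTTG3P*, neither with a row in the table, and reads shared with them cannot be assigned with certainty.

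*CDC25C* fell in this line too, from 21.2 and 22.7 to 15.1 and 15.5 CPM (log2 difference -0.53, SE 0.087, adjusted *p* = 0.000351). *CDC25B*, the phosphatase that starts CDK1 activation, fell by 0.41 on the log2 scale, *CCNB2* (cyclin B2) by 0.43, *CKS1B* by 0.39, *CKS2* by 0.35 and *CCNA2* (cyclin A2) by 0.21. *CDK1* itself was at 134 and 131 CPM against 133 and 139 CPM (log2 difference 0.038, adjusted *p* = 0.497). The kinase thus did not pass the test while its cyclins, CKS subunits and activating phosphatases did. *CKS1B* has 7 annotated pseudogene copies, so its count is uncertain in the same way as that of *PTTG1*.

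*DLGAP5*, a spindle factor of the Aurora A pathway, fell from 188 and 194 to 123 and 132 CPM in DCIS.COM (log2 difference -0.59, SE 0.052, adjusted *p* = 2.08e-06). *HMMR*, a spindle pole protein that binds hyaluronan as well, fell from 99 and 101 to 67.4 and 71.7 CPM (log2 difference -0.53, SE 0.041, adjusted *p* = 7.31e-07). *BUB1* fell from 108 and 111 to 76.1 and 78.1 CPM (log2 difference -0.51, SE 0.041, adjusted *p* = 8.73e-07). Each of the 3 genes kept its groups apart. *AURKA* fell from 120.4 and 118 to 88.5 and 90.9 CPM (log2 difference -0.41, SE 0.045, adjusted *p* = 1.13e-05), and *CENPA* from 32.4 and 36 to 24.2 and 26.6 CPM (log2 difference -0.43, SE 0.071, adjusted *p* = 0.000349).

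Among the kinesins, *KIF18A*, which limits chromosome oscillation, *KIF20A* and *KIF23*, both of the central spindle, *KIF14* and *KIF2C*, which depolymerises microtubules at the centromere, fell by log2 differences of -0.50, -0.44, -0.16, -0.40 and -0.35. *KIF11* stood at 119.8 and 125 CPM against 126 and 128 CPM (adjusted *p* = 0.307). The cytokinesis genes *ANLN*, *ECT2* (the exchange factor that activates RhoA at the equator) and *RACGAP1* (its central spindle partner) fell by 0.38, 0.35 and 0.34 on the log2 scale. *TPX2* fell from 158 and 157 to 135 and 135 CPM (log2 difference -0.22, SE 0.03, adjusted *p* = 7.17e-05) and *PRC1* from 186 and 184 to 157 and 165 CPM (log2 difference -0.20, SE 0.042, adjusted *p* = 0.00163). In the passenger complex *BIRC5* (survivin) fell by 0.36 on the log2 scale, and *AURKB*, *INCENP* and *CDCA8* did not pass the test (log2 differences -0.092, 0.13 and 0.033).

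Of the genes of anaphase entry, *CDC20* fell from 205 and 194 to 168 and 174 CPM (log2 difference -0.22, SE 0.053, adjusted *p* = 0.0043), but its adjusted *p* rose to between 0.013 and 0.0549 when any library of DCIS.COM was left out. *KIF23* lost its call in the same 4 fits (adjusted *p* from 0.0161 to 0.0457), and *PRC1* in 3 of them (0.014 to 0.0238). *CCNA2*, *CKS2*, *TTK* and *CENPF* each lost theirs in 2 of them, with adjusted *p* up to 0.0378 for *TTK* without the pLOC-*MALINC1* library 1. *PLK1* was at 85.8 and 82.1 CPM against 77.6 and 73.3 CPM and did not pass the test (adjusted *p* = 0.0131), although its groups did not overlap. *NDC80* was at 31.8 and 36.3 CPM against 28.3 and 30.6 CPM (adjusted *p* = 0.0152).

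The 2 rises in DCIS.COM were those of *MYBL2* and *MKI67*. *MYBL2* (chr20:42295659-42345135, plus strand) rose from 97.9 and 94.9 to 130.5 and 126 CPM (log2 difference 0.41, SE 0.034, adjusted *p* = 1.24e-06), and *MKI67* from 162 and 168 to 188 and 201.2 CPM (log2 difference 0.24, SE 0.038, adjusted *p* = 0.000269). In MCF10A, *MYBL2* had fallen from 203 and 205 to 171 and 168 CPM (log2 difference -0.27, SE 0.034, adjusted *p* = 3.86e-05). These were the 2 members with opposite calls in the lines, where 7.81% of all genes had opposite calls. *FOXM1* was at 63.5 and 60.6 CPM against 64.1 and 60.4 CPM in DCIS.COM (adjusted *p* = 0.952), with overlapping groups, and *TOP2A* at 365 and 387 CPM against 338 and 355 CPM (adjusted *p* = 0.0604). Without *RN7SL1* and *RN7SL2* in the total, 26 members fell and 2 rose in DCIS.COM.

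**Figure D1:**
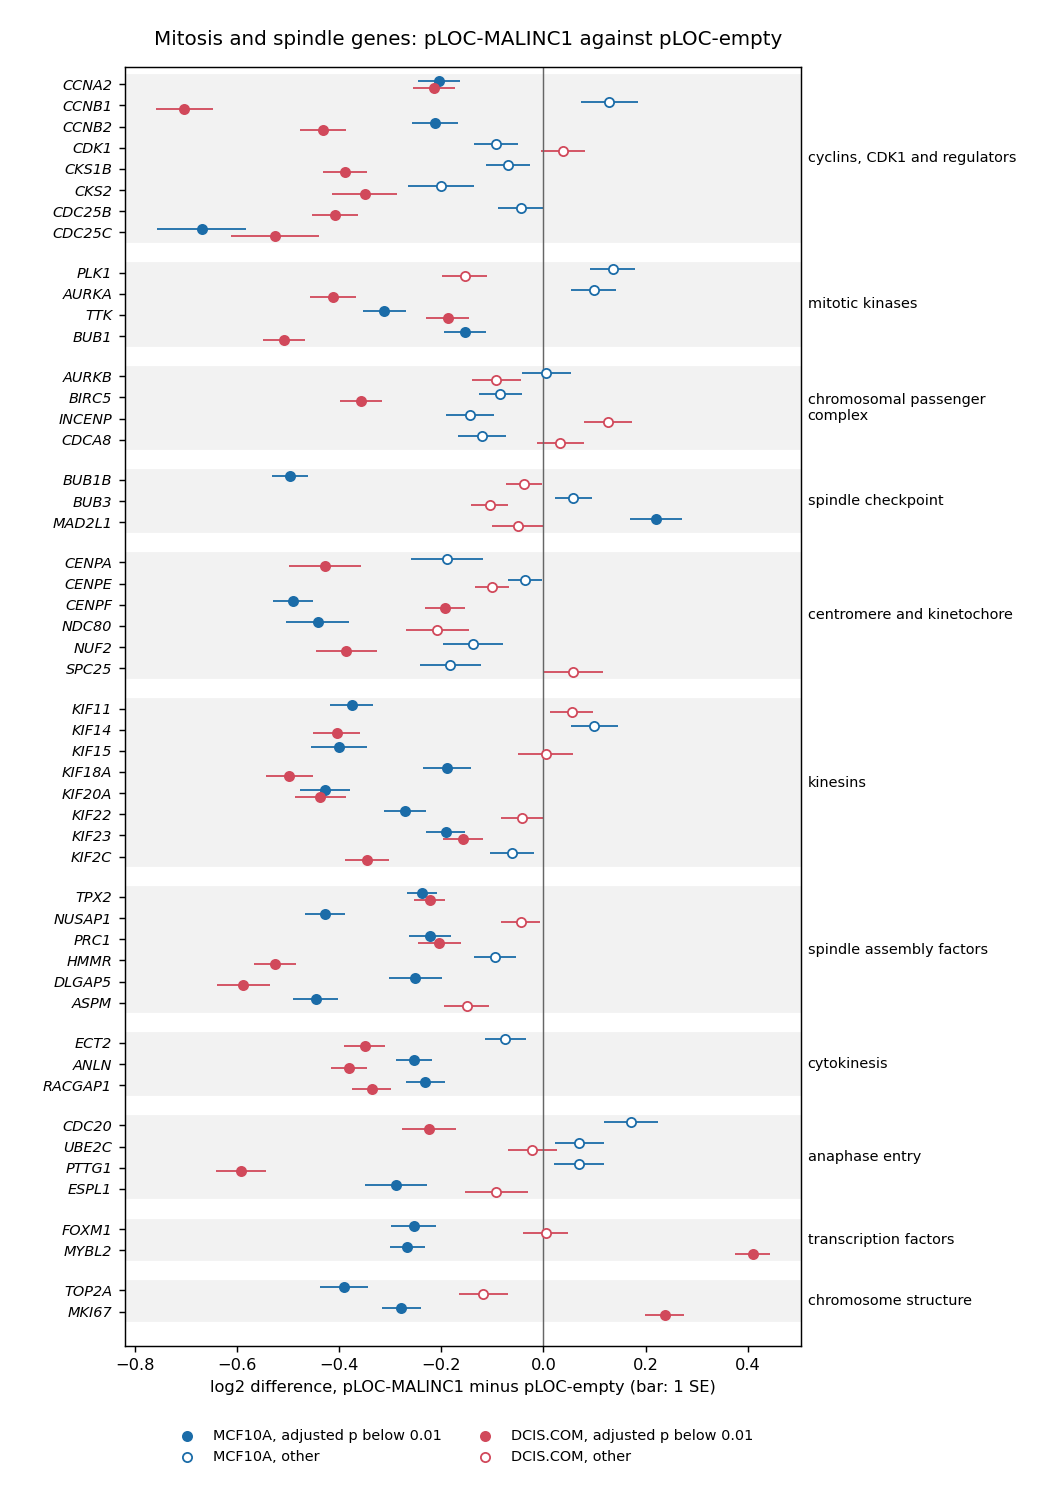
log2 difference between pLOC-*MALINC1* and pLOC-empty for each of the 50 genes, grouped by role, in MCF10A (blue) and DCIS.COM (red). Points are fitted differences with bars of 1 SE, and filled points passed the test. 26 blue points and 28 red points are filled to the left of 0, 1 blue and 2 red points to the right.

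**Figure D2:**
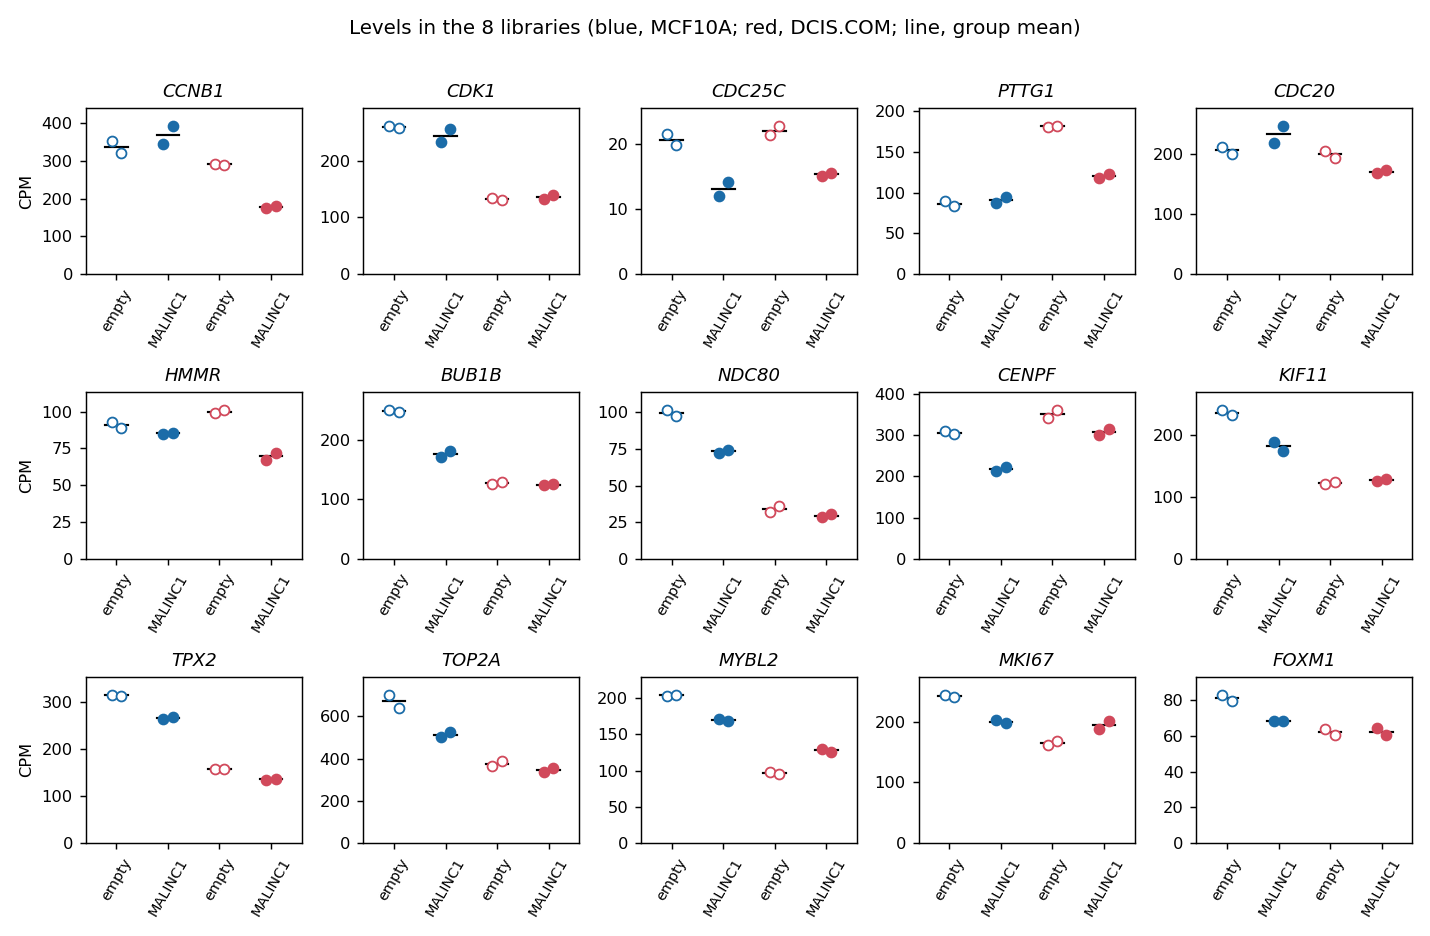
CPM of 15 of the genes in each of the 8 libraries, with open circles for pLOC-empty, filled circles for pLOC-*MALINC1*, blue for MCF10A, red for DCIS.COM and a line at each group mean. *CCNB1* and *PTTG1* are lower with pLOC-*MALINC1* in DCIS.COM and overlap in MCF10A, *BUB1B* and *KIF11* are lower in MCF10A, and *MYBL2* and *MKI67* move in opposite directions in the lines.

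The members that fell in the 2 lines were partly the same. Those that fell in both were 14: *CCNA2*, *CCNB2*, *CDC25C*, *TTK*, *BUB1*, *CENPF*, *KIF18A*, *KIF20A*, *KIF23*, *TPX2*, *PRC1*, *DLGAP5*, *ANLN* and *RACGAP1*. They made up 53.8% of the falls in MCF10A and 50% of those in DCIS.COM. Of all 50 members, 56% fell in DCIS.COM and 52% in MCF10A, so these shares were near those of all members. Among all genes, 3.97% fell in both lines. The mitotic kinase *TTK* (MPS1), which starts checkpoint signalling, had log2 differences of -0.31 in MCF10A and -0.19 in DCIS.COM. Another 9 members passed the test in neither line, namely *CDK1*, *PLK1*, *AURKB*, *INCENP*, *CDCA8*, *BUB3*, *CENPE*, *SPC25* and *UBE2C*. Over the 50 genes, 40 had a difference below 0 in MCF10A, 41 in DCIS.COM and 31 in both, so the 31 do not by themselves show agreement of the lines. The shares of all genes below 0 in both lines, or called in neither, were not counted. The Pearson correlation of the 2 responses across the genes, which share no library, was -0.17 and the Spearman correlation was -0.20. Over all genes tested, the Pearson correlation was -0.015. The genes share each line's libraries and are not independent.

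Whether a response differed between the lines was tested as its own contrast, the response in DCIS.COM minus that in MCF10A. It passed for 28 of the 50 genes. The response was more negative in DCIS.COM for 16 and more positive for 12, where 20.3% and 15.6% of all genes did so, and the median difference was -0.078 on the log2 scale against -0.0071 over all genes. Without *RN7SL1* and *RN7SL2* in the total the numbers were 11 and 13, and without the pLOC-empty library 2 of MCF10A 10 were more negative. The cyclin and CDK1 group and the mitotic kinases had 3 genes each on the negative side and none on the positive side, while both transcription factors and both chromosome structure genes were on the positive side. The kinesins were split, with 3 on either side.

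The responses of *CCNB1* and *PTTG1* differed most on the negative side, by -0.83 (SE 0.079, adjusted *p* = 3.4e-06) and -0.66 (SE 0.069, adjusted *p* = 7.76e-06) on the log2 scale. *AURKA*, *KIF14* and *HMMR* followed with differences of -0.51, -0.50 and -0.43 (adjusted *p* = 3.19e-05, 4.52e-05 and 7.15e-05). *KIF14*, a kinesin of cytokinesis, was at 94 and 85.4 CPM against 93.9 and 98.2 CPM in MCF10A, and it fell from 102 and 102 to 76.7 and 78 CPM in DCIS.COM. *HMMR* in MCF10A was at 93.2 and 88.8 CPM against 84.7 and 85.6 CPM (adjusted *p* = 0.0712). The *PTTG1* libraries of MCF10A overlapped, at 89.8 and 83.2 CPM against 86.7 and 95 CPM, as did those of *AURKA*, at 137 and 126 CPM against 137 and 144 CPM. Further members on this side were *CDC20*, *CDC25B*, *BUB1*, *DLGAP5*, *CKS1B*, *KIF18A*, *PLK1*, *KIF2C*, *ECT2*, *BIRC5* and *MAD2L1*. The calls for *PLK1*, *KIF2C*, *DLGAP5*, *KIF18A*, *BIRC5*, *ECT2* and *MAD2L1* were lost without at least 1 library (adjusted *p* up to 0.0423, for *MAD2L1* without the pLOC-empty library 2 of DCIS.COM).

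On the positive side stood *MYBL2* (difference 0.68, SE 0.048, adjusted *p* = 2.85e-07) and *MKI67* (0.52, SE 0.054, adjusted *p* = 7.2e-06), then *BUB1B* (0.46), *KIF11* (0.43) and *KIF15* (0.40), with adjusted *p* = 1.06e-05, 7.51e-05 and 0.000909. *BUB1B* was at 127 and 129 CPM against 124 and 126 CPM in DCIS.COM, where it did not pass the test. *KIF15*, a motor that works beside *KIF11*, fell from 60.9 and 58 to 43.9 and 46.2 CPM in MCF10A, and it stood at 31.8 and 34.5 CPM against 32.7 and 33.8 CPM in DCIS.COM. *NUSAP1*, *CENPF*, *ASPM*, *TOP2A*, *INCENP*, *FOXM1* and *KIF22* completed this side. Of these, *ASPM*, *TOP2A*, *INCENP*, *FOXM1* and *KIF22* lost the call without at least 1 library. In *CENPF* the positive difference is one between 2 falls, as it fell from 341 and 362 to 299.9 and 315 CPM in DCIS.COM (log2 difference -0.19, SE 0.039, adjusted *p* = 0.0016). *ASPM* was at 198 and 209 CPM against 180.2 and 187 CPM there (adjusted *p* = 0.0146).

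The genes of DNA synthesis, which precede mitosis in the cycle, were counted beside the members. Of 40 S-phase genes, 18 fell in MCF10A and the other 22 did not pass the test (median log2 difference -0.15), whereas in DCIS.COM 27 rose and 1 fell (median 0.29). The difference of the responses was called in 30 of the 40, each more positive in DCIS.COM (median 0.41). Of all genes, 18.1% fell in MCF10A, 16.4% rose and 16.7% fell in DCIS.COM, and 15.6% had a more positive response in DCIS.COM. The single fall in DCIS.COM was that of *TYMS*, thymidylate synthase. *E2F2*, a transcription factor of the G1/S transition, and *CCNE1* (cyclin E1) had log2 differences of 0.98 and 0.68 in DCIS.COM (adjusted *p* = 8.68e-07 and 3e-05), against 0.0085 and -0.034 in MCF10A. *MCM5*, a subunit of the replicative helicase, fell by 0.43 on the log2 scale in MCF10A and rose by 0.46 in DCIS.COM.

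**Figure D3:**
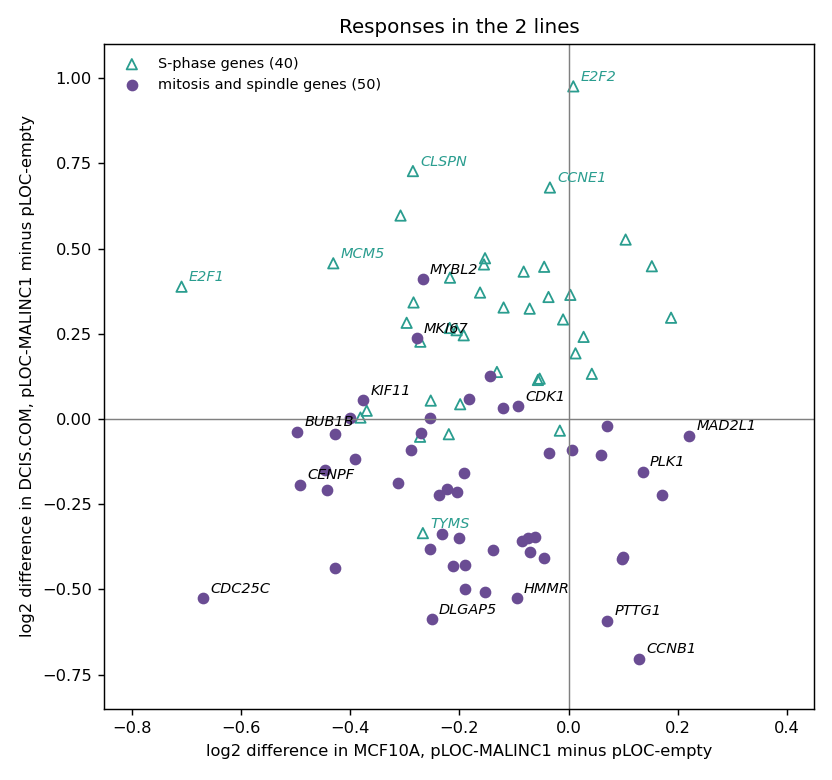
Response to pLOC-*MALINC1* in MCF10A (horizontal) against that in DCIS.COM (vertical), both as log2 differences, for the 50 mitosis and spindle genes (purple circles) and 40 S-phase genes (green triangles). Most triangles lie above the horizontal line at 0 and most circles below it, and *MYBL2* and *MKI67* lie among the triangles.

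Other genes of the same processes were counted in 7 lists, 112 genes in all. In MCF10A 49 of them fell and 9 rose (median log2 difference -0.16), where 18.1% of all genes fell and 21.5% rose. In DCIS.COM 22 fell and 19 rose (median 0.018), shares near the 16.7% and 16.4% of all genes. Among 33 further kinetochore and centromere genes, 17 fell and 1 rose in MCF10A, against 2 falls and 6 rises in DCIS.COM. *ZWINT* and *KNTC1*, which recruit the checkpoint to kinetochores, had log2 differences of -0.33 and -0.49 in MCF10A. Their values in DCIS.COM were 0.43 and 0.43. Of 14 condensin and cohesin genes, 8 fell in MCF10A, and 4 fell and 4 rose in DCIS.COM. Of 24 further spindle genes and kinesins, 11 fell and 2 rose in MCF10A, and 8 fell and 2 rose in DCIS.COM. *NEK2*, a centrosome kinase, was among those that fell in both, by 0.40 and 0.64 on the log2 scale.

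Between the lines, mitosis and spindle genes were mostly lower in DCIS.COM than in MCF10A. Among pLOC-empty libraries 35 of 50 were lower, 7 were higher and 8 did not pass the test, with a median log2 difference of -0.42. Of all genes, 36.0% were lower and 37.9% higher, with a median of 0.031, and 28.6% differed by more than 2-fold, as did 3 members. Among pLOC-*MALINC1* libraries 38 members were lower and 3 higher (median -0.47), where 37.2% of all genes were lower and 35.7% higher. Without *RN7SL1* and *RN7SL2* in the total the median of all genes between the lines moved to 0.14, the median of the members to -0.31, and 30 members were lower and 9 higher.

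*NDC80* showed the largest gap, with 102 and 97.7 CPM in MCF10A and 31.8 and 36.3 CPM in DCIS.COM among pLOC-empty libraries (log2 difference -1.55, SE 0.061, adjusted *p* = 1.08e-10), a 2.93-fold lower level. *MYBL2* (203 and 205 against 97.9 and 94.9 CPM) also exceeded 2-fold (log2 difference -1.08, SE 0.034, adjusted *p* = 1.31e-11). *TPX2* was at 315 and 312 CPM against 158 and 157 CPM (log2 difference -0.99, SE 0.03, adjusted *p* = 8.86e-12), close to 2-fold. *CDK1* was at 262 and 258 CPM against 134 and 131 CPM (log2 difference -0.97, SE 0.043, adjusted *p* = 3.16e-10), and *BUB1B* at 251 and 248 CPM against 127 and 129 CPM (log2 difference -0.96, SE 0.035, adjusted *p* = 5.17e-11). For these 5 genes every DCIS.COM library lay below every MCF10A library, with either vector. *NUF2*, the partner of *NDC80* in the same complex, differed by -0.065 (adjusted *p* = 0.325) and *SPC25*, its inner subunit, by -0.38 (adjusted *p* = 6.79e-05).

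*PTTG1* was the exception in size, at 89.8 and 83.2 CPM in MCF10A and 180.4 and 182 CPM in DCIS.COM (log2 difference 1.07, SE 0.049, adjusted *p* = 4.56e-10), a 2.1-fold higher level. It also stayed higher in DCIS.COM among pLOC-*MALINC1* libraries, by 0.41 on the log2 scale. *BIRC5* was at 50.1 and 52.2 CPM against 60.4 and 59.4 CPM (log2 difference 0.23, SE 0.042, adjusted *p* = 0.000252), and *CCNB2* at 115 and 108 CPM against 129.6 and 131 CPM (log2 difference 0.23, SE 0.044, adjusted *p* = 0.000456). *CENPF* and *KIF14* were higher by 0.20 and 0.19. Of these, *BIRC5* and *CCNB2* did not pass the test among pLOC-*MALINC1* libraries (-0.046 and 0.0059), and *KIF14* was lower there (-0.31, adjusted *p* = 4.09e-05). The number of higher members fell to 4 without the pLOC-empty library 2 of MCF10A or either pLOC-empty library of DCIS.COM, and *KIF14* lost its call without each of these 3 (adjusted *p* = 0.0331, 0.0136 and 0.0141).

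The other leading genes were lower in DCIS.COM by sizes between these. The log2 differences among pLOC-empty libraries were -0.95 for *KIF11*, -0.84 for *TOP2A*, -0.71 for *PRC1*, -0.56 for *MKI67*, -0.50 for *PLK1*, -0.39 for *FOXM1*, -0.31 for *AURKB* and -0.29 for *BUB1*. *AURKA* and *CDC20* did not pass the test (-0.14 and -0.05, adjusted *p* = 0.013 and 0.396). *CCNB1* was lower by 0.21 on the log2 scale (adjusted *p* = 0.00365), a call that was lost without the pLOC-empty library 1 of MCF10A (adjusted *p* = 0.0588) or either pLOC-empty library of DCIS.COM (0.0247 and 0.0282). Among pLOC-*MALINC1* libraries *CCNB1* was lower by 1.04. *MKI67* was not called there (-0.039). The line differences of *CKS1B*, *CENPA*, *CENPF*, *NUSAP1* and *HMMR* also lost their calls without at least 1 library, with the highest adjusted *p* of 0.0887 for *HMMR* without the pLOC-empty library 2 of MCF10A.

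**Figure D4:**
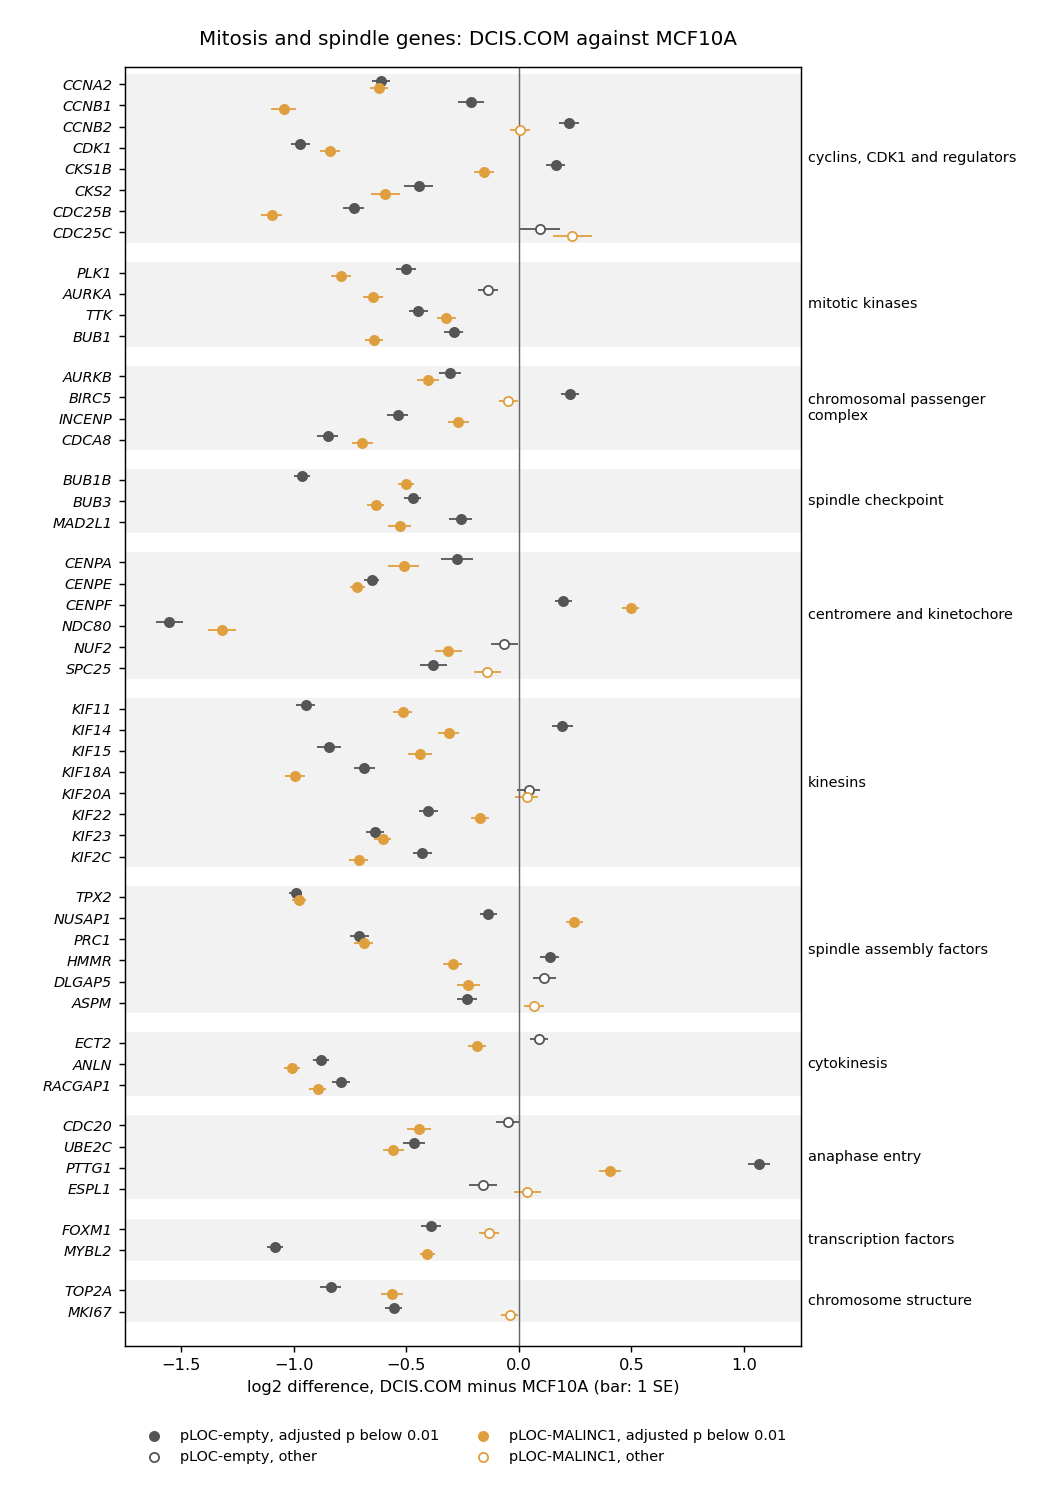
log2 difference between DCIS.COM and MCF10A for the 50 genes by role, among pLOC-empty libraries (grey) and among pLOC-*MALINC1* libraries (orange). Points are fitted differences with bars of 1 SE, and filled points passed the test. 35 grey and 38 orange points are filled to the left of 0, and *PTTG1* lies to the right in both.

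Transcript length and overlapping annotation were checked as features the choice of genes did not use. Across the 50 genes the response tended to be more negative for longer transcripts in MCF10A and less negative in DCIS.COM (Pearson correlation with log2 length -0.26 and 0.27), against -0.0087 and 0.064 over 12978 genes with a length. The genes share libraries, and this is a description. All 50 genes have a GENCODE model in GRCh37. Exons of 10 of them overlap a gene on the opposite strand, as for *CCNA2* (*EXOSC9*), *KIF20A* (*CDC23*), *FOXM1* (*ITFG2*, *RHNO1*) and *PLK1* (*ERN2*), and the strand setting of the counting is not stated. Exons of 4 (*BUB1B*, *CCNB2*, *NUSAP1* and *PRC1*) overlap the span of another gene on the same strand. Copies or pseudogenes elsewhere are annotated for 13 of the 50, of which *AURKAP1*, a copy of *AURKA*, has its own row in the table.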

How the data were processed

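The authors mapped the paired reads of ScriptSeq total RNA libraries with Rsubread (hg19). Counting was done by them with featureCounts against UCSC gene models, and the authors made the deposited log2 CPM values with edgeR. Tool versions and the strand setting are not given in the sources used here. The deposited log2 values behave as CPM with a prior count of 2, and after its removal 100% of values were whole reads within 0.1 read. The 50 genes, their roles and all gene lists were chosen with earlier results of these data known. limma 3.58.1 in R 4.3.3 was fitted to the log2 CPM of all 13842 genes (lmFit with 4 group means, contrasts, eBayes with a trend over mean log2 CPM, two-sided, Benjamini-Hochberg over all genes). Genes past adjusted *p* = 0.01 were called, and those that also passed 2-fold were counted separately. Fold changes are on the scale of the deposited values. The 4 residual degrees of freedom were joined by 7.98 from the prior, and the median SE over all genes was 0.0731. With 2 libraries per group, no exact test of a single gene could reach a small *p*, so none is given. The fitting steps were also run on simulated counts with a fixed spread and far fewer changed genes than were called here. That case is simpler than these data, and no result here rests on it. Values per library are printed for the 5 largest rises and falls among called members in each comparison and for members called in opposite directions. They are also printed for the 16 leading members except *AURKB*, though not in every comparison. Other genes named with values were chosen after their values were seen. Transcript lengths and coordinates are from GENCODE (GRCh37), promoters from RefSeq (GRCh38.p14). Alternatives changed the pseudocount, filter, scaling, model and thresholds, and left out each library in turn. The rows without a gene symbol (346) stayed in the fit. Python 3.11.15 with pandas 2.3.3, numpy 2.4.6 and matplotlib 3.10.9 served for tables and plots.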

Additional observations from a re-analysis of the deposited data

Results flagged for a closer look

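The response to pLOC-*MALINC1* differed between the lines in 28 of the 50 genes by the test of the difference itself (limma, adjusted *p* below 0.01 over all genes), where 15.6% of all genes had a more positive and 20.3% a more negative response in DCIS.COM. The values here are the log2 response in DCIS.COM minus that in MCF10A. On the negative side, *CCNB1* was at -0.83, *PTTG1* at -0.66, *AURKA* at -0.51, *KIF14* at -0.50, *HMMR* at -0.43, *CDC20* at -0.39, *CDC25B* at -0.36 and *BUB1* at -0.35. *DLGAP5* was at -0.34, *CKS1B* at -0.32, *KIF18A* at -0.31, *PLK1* at -0.29, *KIF2C* and *ECT2* at -0.28, and *BIRC5* and *MAD2L1* at -0.27. On the positive side, *MYBL2* was at 0.68, *MKI67* at 0.52, *BUB1B* at 0.46, *KIF11* at 0.43, *KIF15* at 0.40 and *NUSAP1* at 0.38. *CENPF* and *ASPM* were at 0.30, *TOP2A* and *INCENP* at 0.27, *FOXM1* at 0.26 and *KIF22* at 0.23. Of the 28 calls, 16 were kept without each library in turn.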

How the results depend on the processing

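The median of the mitosis and spindle genes kept its sign in each of the 4 comparisons under each alternative run for it. The replicate numbers did not pair the libraries: deviations of same-numbered libraries correlated between -0.0666 and 0.0382. With the replicate number as a block, 1 gene rose and 25 fell in MCF10A, 2 rose and 28 fell in DCIS.COM, 12 responses were more positive and 16 more negative in DCIS.COM, and 6 genes were higher and 35 lower between the lines. The number of rises in MCF10A was 2 with a pseudocount of 1 CPM or with limma-voom, 0 with quantile normalization, without *RN7SL1* and *RN7SL2*, without a variance trend, with the line fitted alone or with a minimum change of 0.32 on the log2 scale, 3 at adjusted *p* below 0.05, and 0 to 3 leaving out 1 library. The falls in MCF10A numbered 16 without a trend, 13 with the line fitted alone and 10 past 0.32. In DCIS.COM 1 gene rose under each of these 3 settings. For the difference of the responses, the median was -0.0037 without *RN7SL1* and *RN7SL2*, 5 were more positive and 6 more negative without a trend, 6 and 9 past 0.32, and 10 to 17 were more negative leaving out 1 library. Between the lines, the median was -0.35 with quantile normalization, -0.31 without *RN7SL1* and *RN7SL2* and -0.47 among pLOC-*MALINC1* libraries, and the number of higher genes was 2 without a trend, 1 past 0.32, 3 among pLOC-*MALINC1* libraries and 4 to 7 leaving out 1 library. Without *RN7SL1* and *RN7SL2*, the median difference of the responses over all genes also moved, from -0.0071 to 0.067. The causes were not tested.

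Apart from the changed thresholds, which were not counted here, calls held under every setting for 12 of 27 genes in MCF10A and 21 of 30 in DCIS.COM. They held for 11 of 28 differences of the responses and 29 of 42 between the lines. These 29 include *BIRC5*, which was not called and had the opposite sign among pLOC-*MALINC1* libraries. No called gene changed sign in a vector comparison or in the difference of the responses. The values that changed sign were near 0 in those comparisons. In MCF10A, *AURKB* became -0.032 with quantile normalization, -0.021 with median-ratio factors, -0.034 without *RN7SL1* and *RN7SL2*, and -0.041 to 0.052 leaving out 1 library. In DCIS.COM, *KIF15* became -0.0024 and *FOXM1* -0.0024 with median-ratio factors, and *UBE2C* 0.012 without *RN7SL1* and *RN7SL2*. Leaving out 1 library gave *CDCA8* -0.018 to 0.084, *KIF15* -0.056 to 0.064, *NUSAP1* -0.095 to 0.0047, *UBE2C* -0.081 to 0.037 and *FOXM1* -0.039 to 0.047. In the difference of the responses, *CCNA2* became 0.010 with quantile normalization, 0.011 with median-ratio factors and 0.065 without *RN7SL1* and *RN7SL2*, *KIF20A* 0.024, 0.011 and 0.066, *PRC1* -0.0047 with quantile normalization and *CENPE* 0.011 without *RN7SL1* and *RN7SL2*. Leaving out 1 library gave *CCNA2* -0.058 to 0.040, *KIF20A* -0.082 to 0.065, *KIF23* -0.015 to 0.082 and *PRC1* -0.039 to 0.076. Between the lines, *CDC20* became 0.048 with quantile normalization and 0.056 without *RN7SL1* and *RN7SL2*, *NUF2* 0.041 without them, and *KIF20A* -0.031 to 0.12 leaving out 1 library. Among pLOC-*MALINC1* libraries the line difference turned for *CKS1B* (-0.15), *BIRC5* (-0.046), *KIF14* (-0.31), *NUSAP1* (0.25), *HMMR* (-0.29), *DLGAP5* (-0.22), *ASPM* (0.066), *ECT2* (-0.19) and *ESPL1* (0.038). The lowest value of any of these genes was 680 reads, for *KIF15*. The part of depth and of group size in these changes was not tested.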

Other observations

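Genes that act around the mitosis and spindle genes were counted in further lists, beside 18.1% of all genes that fell and 21.5% that rose in MCF10A, and 16.7% and 16.4% in DCIS.COM. With so few genes in a list, these counts are given as values only. Of 17 genes of the anaphase-promoting complex, the ubiquitin ligase of mitotic exit, 4 fell and 3 rose in MCF10A, and 3 fell and 2 rose in DCIS.COM. *FBXO5*, which encodes the inhibitor EMI1 of this ligase, had log2 differences of -0.43 in MCF10A and 0.51 in DCIS.COM (adjusted *p* = 4.45e-05 and 1.47e-05). *UBE2S*, which extends ubiquitin chains on its substrates, had 0.43 and -0.31 (adjusted *p* = 1.79e-05 and 0.000323). Of 5 genes of entry control, 1 fell and 1 rose in MCF10A, and 1 rose in DCIS.COM. Of 9 genes of the MuvB and DREAM complexes, which bind the cell cycle homology region, 3 fell and 2 rose in MCF10A, and 1 fell and 3 rose in DCIS.COM. Of 10 further genes of cytokinesis and late mitosis, 5 fell in MCF10A, and 4 fell and 1 rose in DCIS.COM.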
